A study of Arabidopsis thaliana with 12 samples.

Results

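The 6 genes described here, all nuclear, encode proteins of the plastid ribosome: 2 of its small subunit (S6, AT1G64510, and S10, AT3G13120) and 4 of its large subunit (L5, AT4G01310; L17, AT3G54210; L29, AT5G65220; and L34, AT1G29070). They were chosen as the plastid ribosomal protein genes to which the array's annotation assigns a feature, a hybridization target on the array, of its own. They account for 6 of the 692 features with a single gene, in a table of 3439 features. Each of the 6 genes had 1 feature, so no value below has a second probe to set beside it. Of 40 nuclear genes in a list of plastid ribosomal proteins these 6 were the ones on such features.

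The samples were total RNA of Arabidopsis thaliana, 6 of wild type (WT) and 6 of the psbs mutant, both in the Columbia 0 ecotype. The psbs mutant has no PsbS, called PSII-S in the labels, the thylakoid protein that leaves need to shed excess absorbed light quickly as heat. The allele, tissue, age and light are not given in the labels. Nothing says that replicates came from different plants, so p-values below reflect the spread among the samples alone, part of which may be technical. The question is which transcript levels change when PsbS is missing. PSBS was on no feature of a single gene, so its loss could not serve as a check of the sample labels.

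Plastids translate their own genome on ribosomes of the bacterial type. Some of the ribosomal proteins are encoded in the plastid genome, and the others, including these 6, are encoded in the nucleus, made in the cytosol and imported. Much of the output of these ribosomes in leaves is photosystem, ATP synthase and Rubisco subunits, and genes for plastid ribosomal proteins are commonly expressed most in young green tissue.

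The deposited values are linear intensities from 0 to 100. The groups differed across the whole table, which bears on each result below. The mean of the sample medians was 10.7-fold lower in psbs and the summed intensity 1.25-fold lower. The bright end went the other way, with a mean 99th percentile 1.53-fold higher in psbs. The share of features listed at exactly 0 was 13.03% to 13.72% in WT samples and 27.04% to 34.92% in psbs samples. The labels name no hybridization batch, and one matching the groups could not be told apart from the genotype. Within psbs, replicates 1 and 2 differed from replicates 3 to 6, with correlations of 0.762 to 0.781 between these sets against 0.881 between replicates 1 and 2 (scaled log2 values over features, which do not count as replicates). Because the groups' distributions differed so much, each gene is given in 3 ways. These are the intensity as deposited, the rank within its sample and the log2 difference after quantile scaling of the 12 samples. The rank is not altered by a rescaling of the sample that keeps its values in order without making ties. Values at 0 are tied, so the rank of a dim feature also depends on the share of features at 0. A call means an adjusted p under 0.05 over all 3359 features tested. After quantile scaling 55.3% of them were called, 26.2% higher and 29.1% lower in psbs.

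L17 was higher in psbs than in WT on every scale used. L29 was lower as deposited, in rank and after quantile scaling. L5 moved up in rank while its deposited intensity overlapped between the groups. S10 was lower as deposited. S6 and L34 were at or near 0 in many samples, and the sign of their difference depended on the scaling. Of the 6 genes, 3 were called after quantile scaling, 2 higher and 1 lower. At 50% this was close to the 55.3% of all features, so the count says nothing particular about these genes.

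Of the large-subunit genes, L17 encodes a protein that in bacteria sits beside the exit of the tunnel through which the new chain leaves. Its deposited intensity in WT replicates 1 to 6 was 0.608, 0.586, 0.536, 0.556, 0.483 and 0.498. In psbs replicates 1 to 6 it was 1.51, 1.63, 0.907, 0.840, 0.767 and 0.729. Every psbs sample exceeded every WT sample, as at 5.84% of features in that direction, and replicates 1 and 2 were the highest of them. The mean rose from 0.545 ± 0.0488 (SD, n = 6) to 1.06 ± 0.398 (SD, n = 6), 1.95-fold. Without psbs replicates 1 and 2 the ratio was 1.49. In bulk RNA, fewer cells expressing a gene and less RNA per cell cannot be told apart, and this holds for each gene here.

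L17 also moved up within its samples. The share of features with a lower value than L17 was 67.9% ± 0.813 (SD, n = 6) in WT samples and 93.2% ± 1.08 (SD, n = 6) in psbs samples. The rank difference of 25.3 percentage points had an adjusted p of 0.00535 in a two-sided exact permutation test, with every psbs sample above every WT sample. The unadjusted p of 0.00216 is the smallest that 6 against 6 samples can give. By that test 50.8% of all features were called, 21.2% with a higher rank in psbs. The log2 difference of psbs minus WT after quantile scaling was 2.16 ± 0.12 (SE), called higher (limma adjusted p = 1.72e-08). It was 0.89 as deposited (limma adjusted p = 0.00188), where 7.38% of features were called higher, and 4.33 with each sample centred on its median. Among the 3359 features 6.37% were called higher under all 5 scalings tried, L17 among them.

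**Figure D1:**
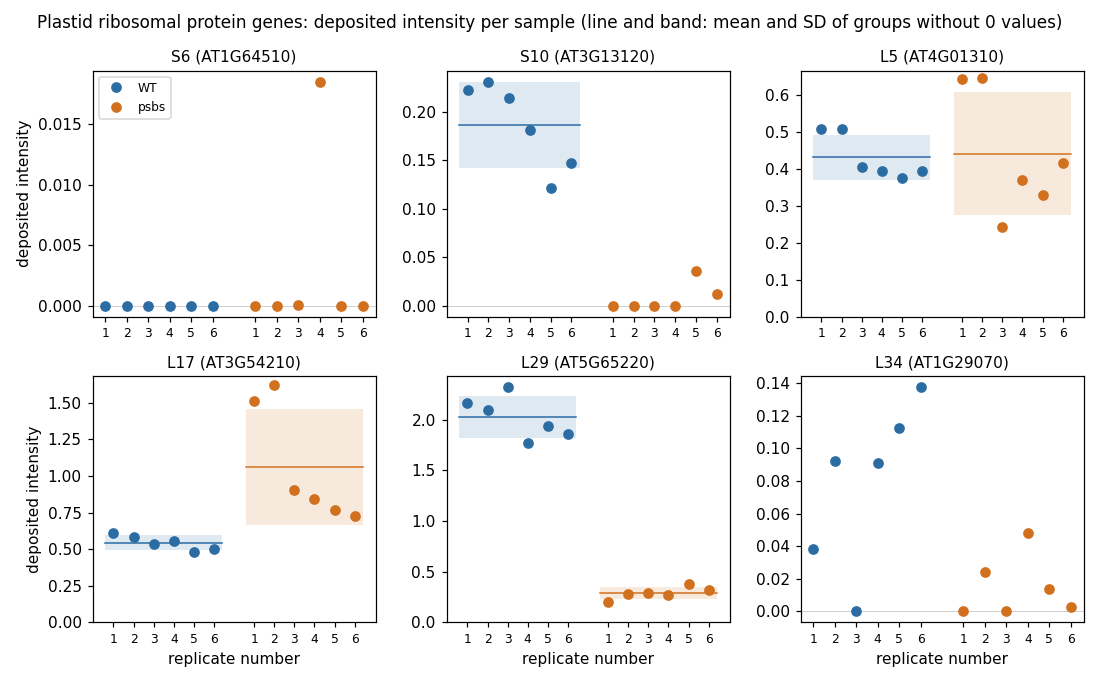
Deposited intensity (vertical axis, linear, arbitrary units, a scale of its own for each gene) of the 6 genes in each WT and psbs sample (horizontal axis, replicate number); lines and bands give the mean and SD of groups in which no sample was listed at 0. The 6 psbs samples of L17 lie above and those of L29 below all WT samples, and L5 overlaps between the groups.

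L29 encodes a protein that in bacteria lies at the tunnel exit, next to the docking site for targeting factors. Its deposited intensity in WT replicates 1 to 6 was 2.17, 2.10, 2.32, 1.77, 1.94 and 1.86. In psbs replicates 1 to 6 it was 0.204, 0.276, 0.288, 0.271, 0.381 and 0.317. The groups did not overlap, which was also so for 67.3% of features with psbs below WT. The mean fell from 2.03 ± 0.207 (SD, n = 6) to 0.289 ± 0.0581 (SD, n = 6), a 7.001-fold difference.

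In rank L29 went from above 94.4% ± 0.598 (SD, n = 6) of features in WT to above 84.9% ± 2.06 (SD, n = 6) in psbs. The difference of -9.51 percentage points had an adjusted p of 0.00535 (two-sided exact permutation test, lower in 6 of 6 psbs samples), and 29.6% of features were called with a lower rank. Ranked only among the 1407 features above 0 in all samples the difference was -22.99 points (adjusted p = 0.00363), and among features of a single gene -5.395 (adjusted p = 0.00598), both by the same exact permutation test. After quantile scaling L29 fell by 1.43 on the log2 scale, with an SE of 0.12 and a limma adjusted p of 5.95e-07. The direction turned with median centring, which gave 0.61 ± 0.13 (SE), called higher (limma adjusted p = 0.00246). As deposited L29 was at -2.83 ± 0.14 (SE), within its error of the median difference of all features, -2.86.

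L5 encodes the large-subunit protein that in bacteria binds 5S ribosomal RNA in the central protuberance. WT replicates 1 to 6 had deposited intensities of 0.509, 0.507, 0.406, 0.395, 0.376 and 0.394. The psbs replicates 1 to 6 had 0.644, 0.646, 0.244, 0.371, 0.330 and 0.415. psbs replicates 1 and 2 exceeded each WT sample and 3 others were below each of them, so the groups overlapped. The mean was 0.431 ± 0.0605 (SD, n = 6) for WT and 0.442 ± 0.167 (SD, n = 6) for psbs, and the log2 difference as deposited was -0.04, with a 95% interval of -0.56 to 0.47 (limma adjusted p = 0.881). Without psbs replicates 1 and 2 the ratio of psbs to WT was 0.788, against 1.02 with them.

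The rank of L5 separated the groups although its intensity did not. In WT samples L5 exceeded 56.8% to 61.4% of features and in psbs samples 83.5% to 90.8%, with no overlap. The difference of 28.7 percentage points (exact permutation test, two-sided, adjusted p = 0.00535) was 27.3 without psbs replicates 1 and 2 (adjusted p = 0.0099). After quantile scaling the log2 difference was 1.72 ± 0.14 (SE), called higher (limma adjusted p = 4.66e-07). It was not called as deposited, nor when samples were scaled to the same summed intensity, at 0.27 (limma adjusted p = 0.287). The upward call for L5 therefore holds relative to other features and not for the intensity itself.

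**Figure D2:**
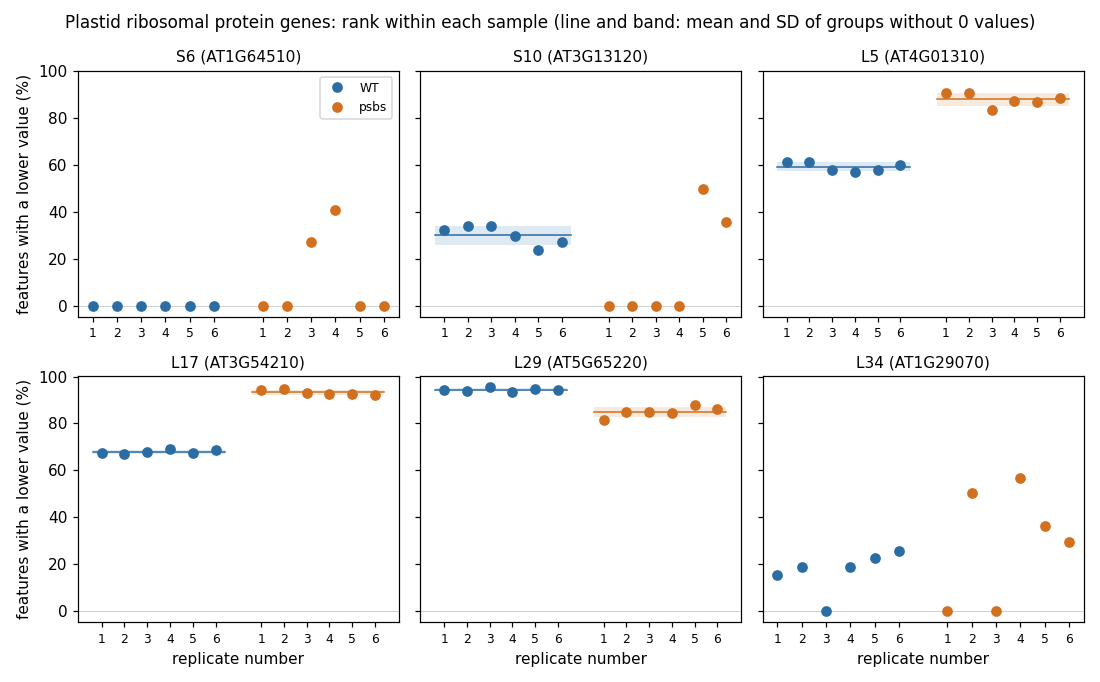
Rank of the 6 genes, as the percentage of all 3439 features with a lower value in the same sample (vertical axis), by replicate number (horizontal axis) in WT and psbs; lines and bands give the mean and SD of groups in which no sample was listed at 0. L5 and L17 have higher ranks and L29 lower ranks in all 6 psbs samples than in any WT sample, and the psbs samples of S6, S10 and L34 include samples listed at 0.

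L34, a small protein of the large subunit, was dim in both groups. Its deposited intensity in WT replicates 1 to 6 was 0.0383, 0.0921, 0, 0.0911, 0.112 and 0.137. In psbs replicates 1 to 6 it was 0, 0.0240, 0, 0.0481, 0.0138 and 0.00276. The groups overlapped, with 1 WT and 2 psbs samples listed at 0. In the scaled values 4 WT and 2 psbs samples were at the floor, so the size of its difference depends on where the floor was set.

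The direction for L34 changed with the scale. It was called lower as deposited, with a log2 difference of -1.87 (limma adjusted p = 0.0144; 73% of features were called lower there). After quantile scaling it was 0.82 ± 0.34 (SE) and did not pass (limma adjusted p = 0.0549), with a 95% interval of 0.09 to 1.56. Leaving out psbs replicate 1 gave 1.03 (limma adjusted p = 0.0183) and leaving out psbs replicate 3 also gave 1.03 (limma adjusted p = 0.02). Both are the psbs samples listed at 0 for this gene. Leaving out psbs replicate 2 gave 0.67 (limma adjusted p = 0.114) and leaving out psbs replicate 4, its brightest psbs sample, gave 0.62 (limma adjusted p = 0.111). Without psbs replicates 1 and 2 it was 0.90 (limma adjusted p = 0.0446). Its ranks ran from 0% to 25.7% in WT and from 0% to 56.6% in psbs and did not pass the test (exact permutation adjusted p = 0.396).

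Of the small-subunit genes, S10 encodes a protein of the subunit's head, whose bacterial counterpart also takes part in transcription antitermination. Its deposited intensity was 0.222, 0.230, 0.213, 0.181, 0.121 and 0.147 in WT replicates 1 to 6. It was listed at 0 in psbs replicates 1 to 4 and at 0.0354 and 0.0123 in replicates 5 and 6. Every psbs sample was below every WT sample. Of all features, 12.3% were likewise above 0 in each WT sample and at 0 in 4 or more psbs samples.

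S10 was called lower as deposited, at -3.69 ± 0.30 (SE) on the floored log2 scale (limma adjusted p = 2.71e-07). There 73% of features were called lower, the median difference was -2.86, and 67.3% of features had every psbs sample below every WT sample. After quantile scaling the difference was -0.26, with a 95% interval of -0.93 to 0.42 (limma adjusted p = 0.478), and 4 of its 6 psbs values were at the floor. Its rank was 23.9% to 33.8% in WT. In psbs it was 0% in the 4 samples listed at 0 and 49.7% and 35.4% in replicates 5 and 6, both above all WT samples. The mean rank difference of -15.8 points did not pass (exact permutation adjusted p = 0.155), but without psbs replicate 5 it was -22.9 (adjusted p = 0.038). So the psbs samples in which S10 was above 0 had a higher rank than WT at a lower intensity, and the others had the lowest possible rank. Any value above 0 outranks the features listed at 0, which were 27.04% and 27.68% in psbs replicates 5 and 6. In WT samples they were 13.03% to 13.72%. The part of these shares in the higher rank was not tested.

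S6 encodes a protein that in bacteria lies on the platform of the small subunit. It was listed at 0 in each of the 6 WT samples, and also in psbs replicates 1, 2, 5 and 6. In psbs replicates 3 and 4 it was at 8.90e-05 and 0.0185. Of all features, 8.6% were at 0 throughout WT and above 0 in some psbs sample. The feature of S6 carries a number that is a multiple of 6, and 75.5% of the 261 such features were at 0 in all WT samples, against 5.41% of the other 3178; the part of this in the values of S6 was not tested. The scaled log2 difference was 0.31, with a 95% interval of -0.16 to 0.79 (limma adjusted p = 0.231), and the rank did not pass (exact permutation adjusted p = 0.548). No level of S6 can be read from these samples in either group.

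By subunit, 0 of the 2 small-subunit genes and 3 of the 4 large-subunit genes were called after quantile scaling, where 55.3% of all features were. The large-subunit calls went in both directions, with 2 higher and 1 lower, and a median log2 difference of 1.27 over the 4 genes. Over all features the median was 0.05. As deposited 1 small-subunit gene was called lower, and of the large-subunit genes 1 was called higher and 2 lower, against 80.4% of features called in either direction. The median of the 6 genes was -0.96 as deposited, where that of all features was -2.86, and 0.57 after quantile scaling. Scaling to the same summed intensity gave the same counts as the deposited values, 1 higher and 3 lower, where 78.7% of features were called, 8.37% higher and 70.3% lower. Cyclic loess gave the same counts as quantile scaling, 2 higher and 1 lower, where 49.3% were called, 23% higher and 26.3% lower. Median centring gave 3 higher and 0 lower, where 46.4% were called, 26.5% higher and 19.9% lower.

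In rank 3 of the 6 genes did not overlap between the groups, 2 with psbs above WT and 1 below, against 40.4% of all features, 17.6% above and 22.8% below. In deposited intensity 3 did not overlap, 1 above and 2 below, against 73.1% of features in either direction. Both small-subunit genes had samples listed at 0, as had L34 of the large subunit, and these 3 genes were not called after quantile scaling. With 2 small-subunit genes, neither above 0 in all samples, a difference between the subunits could not be examined apart from signal strength.

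**Figure D3:**
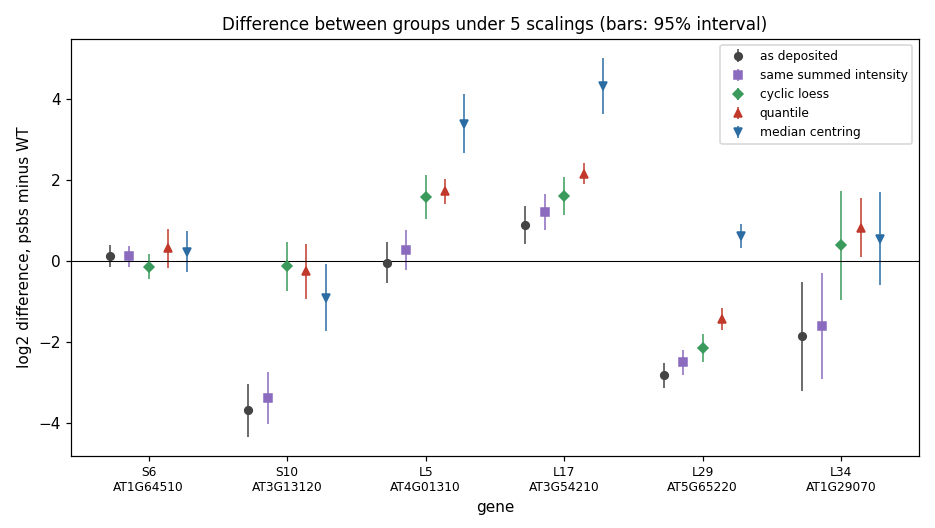
Log2 difference, psbs minus WT (vertical axis), of each of the 6 genes (horizontal axis) under 5 scalings of the samples, with 95% intervals from limma (n = 6 samples per group). L17 is above 0 under all 5 and L29 is below 0 under all but median centring. S10 is below 0 under all 5 but changes size, and L5, L34 and S6 change sign with the scaling.

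A ratio of genes within a sample cancels any factor common to that sample, and a shift of the ratio between groups shows unequal change of the genes. L5, L17 and L29, the genes above 0 in all 12 samples, give 3 such ratios. The log2 ratio of L17 to L29 was -1.89 ± 0.15 (SD, n = 6) in WT samples and 1.82 ± 0.75 (SD, n = 6) in psbs samples, a shift of 3.72, or 13.2-fold. The lowest psbs sample, at 1.01, was above the highest WT sample, at -1.67, so the order of L17 and L29 was reversed in every psbs sample. The L5 to L29 ratio shifted by 2.78 (6.89-fold), from between -2.52 and -2.05 in WT to between -0.24 and 1.66 in psbs.

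L5 and L17 were the most alike of these genes but did not keep a constant ratio as deposited. The log2 ratio of L5 to L17 was -0.34 ± 0.10 (SD, n = 6) in WT samples and -1.28 ± 0.35 (SD, n = 6) in psbs samples, a difference of -0.93 with no overlap. L17 exceeded L5 in every sample of both groups. After cyclic loess the log2 differences of psbs minus WT were nearly equal, at 1.58 for L5 and 1.60 for L17, so this shift depends on the scaling. Without psbs replicates 1 and 2 the shifts were 3.27 for L17 to L29, 2.34 for L5 to L29 and -0.93 for L5 to L17. The ratios of 54.2% of all pairs among the 1407 features above 0 in all samples did not overlap between the groups, so non-overlap of all 3 ratios is not particular to these genes.

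**Figure D4:**
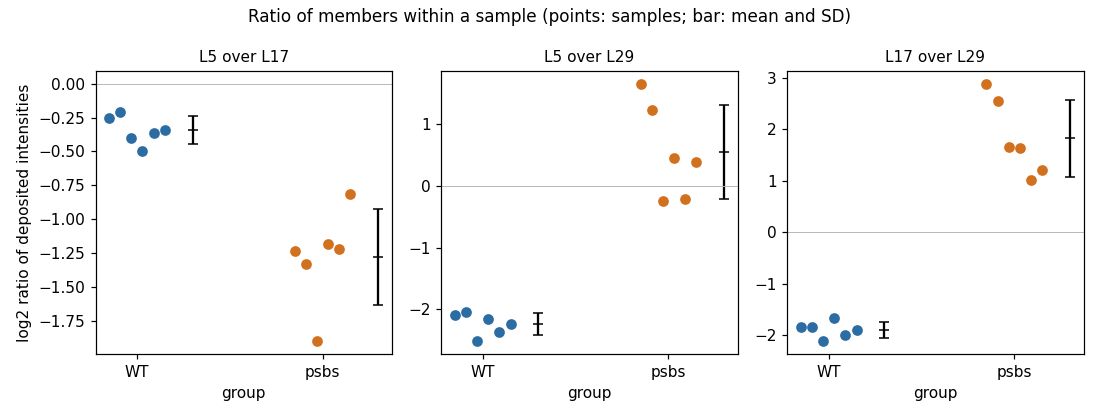
Log2 ratio of deposited intensities (vertical axis) for 3 pairs of large-subunit genes in the 6 WT and 6 psbs samples (points), with the mean and SD of each group beside them. The groups do not overlap for any pair, and the shift is greatest for L17 over L29, from a mean of -1.89 to 1.82.

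Spread within groups was wider in psbs. The coefficient of variation of deposited intensity was 8.96% for L17, 10.2% for L29 and 14.02% for L5 in WT, against a median of 14.7% over the 1407 features above 0 in all samples. In psbs it was 37.4%, 20.1% and 37.9%, against a median of 44.6%. The psbs values of L5 and L17 were highest in replicates 1 and 2, whose means were 0.645 for L5 and 1.57 for L17. Replicates 3 to 6 had means of 0.340 ± 0.0731 and 0.811 ± 0.0793 (SD, n = 4 each). L29 was not raised in the same samples, with a mean of 0.240 in replicates 1 and 2 and 0.314 ± 0.0482 (SD, n = 4) in the others. Replicates 1 and 2 therefore did not differ from the other psbs samples by a common factor at these 3 genes.

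Likeness of pattern was measured as the root mean square, over the 12 samples, of the difference between the scaled log2 values of a pair of genes after each gene's own mean had been subtracted. It is a description over samples that fall into 2 groups. Of 256 other single-gene features above 0 in all samples, AT1G15140 and THIC, an enzyme of thiamine synthesis, were nearest to L5, at 0.17 and 0.21. AT3G22150, a pentatricopeptide repeat protein, and AT3G15140 were nearest to L17, at 0.15 and 0.18. AT1G24360, a ketoacyl reductase of plastid fatty acid synthesis, and AT4G08940 were nearest to L29, at 0.22 and 0.23. The median distance of the 256 features was 0.94 from L5, 1.08 from L17 and 1.01 from L29. L5 and L17 were at 0.27 from each other, and at 1.61 and 1.82 from L29. Likeness after scaling did not mean like intensities: the mean of AT3G22150 was 0.114 ± 0.0225 (SD, n = 6) for WT and 0.0689 ± 0.0154 (SD, n = 6) for psbs, lower as deposited where L17 was higher.

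Few other genes of plastid translation were on features of a single gene. Of 18 translation factor genes 1 was measured, and of 17 ribosome assembly genes 2 were, on 3 features. The plastid trigger factor (AT5G55220), a chaperone that in bacteria meets new chains at the tunnel exit, was at 0 throughout WT and in 3 psbs samples. It reached 0.0874 in the remaining psbs samples and did not pass (log2 difference 0.85, limma adjusted p = 0.0927). PAC (AT2G48120), PALE CRESS, which is needed for plastid ribosomal RNA maturation and chloroplast development, was called higher after quantile scaling at 0.74 ± 0.18 (SE; limma adjusted p = 0.00393). Its deposited intensity went the other way, from 0.312 ± 0.0677 (SD, n = 6) for WT to 0.0665 ± 0.0235 (SD, n = 6) for psbs, and was called lower, at -2.28 (limma adjusted p = 2.91e-06).

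AT2G25870, for the plastid YbeY endoribonuclease of ribosomal RNA processing, had 2 features. As deposited both were called lower, at -3.34 and -2.18 (limma adjusted p = 7.61e-05 and 3.03e-06). After quantile scaling 1 was called higher, at 0.41 (limma adjusted p = 0.0284), and the other did not pass, at -0.11 (limma adjusted p = 0.827). The features differed in brightness, with WT means of 0.491 ± 0.0674 and 0.359 ± 0.0761 (SD, n = 6 each) and psbs ranges of 0.0603 to 0.194 and 0 to 0.0915. Of the 3 assembly features 2 were called higher and 0 lower after quantile scaling, against 26.2% and 29.1% of all features. As deposited 0 were called higher and 3 lower, against 7.38% and 73% of all features.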

How the data were processed

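Total RNA of 6 WT and 6 psbs samples was measured on an array of 3439 features. The authors deposited 1 linear intensity per feature and sample; for background correction and scaling the entry is "not given in the sources used here", and what a 0 means is unknown. Groups came from sample titles. Features were named from the platform annotation, 692 with a single gene, 690 of them matched to a TAIR10.1 locus. The members, lists and tests were chosen with earlier results of these data known. The 6 genes, up to 4 genes per list and the 2 features nearest to each bright member were named by rule. A search of the gene table for ribosomal protein names found 0. It missed these 6 genes as well, so it cannot tell whether other ribosomal protein genes were on features of a single gene.

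Columns were quantile normalized with 0 kept at 0. Values under the 5th percentile of pooled positive values (0.0559) were set to it and values were converted to log2. Setting values to this floor understates changes of dim features. Their direction can also differ from that as deposited, as for L34, at -1.87 as deposited and 0.82 after quantile scaling. The 80 features at 0 throughout were left out. limma 3.58.1 in R 4.3.3 was fitted to 3359 features with Benjamini-Hochberg adjustment. Ranks were compared by two-sided exact permutation tests, adjusted over the same features (Python 3.11.15). The limma fit was tried on simulated independent normal values with the WT means and SD in both groups, apart from added changes. That setting lacks the wider spread of psbs and the difference in distributions, so it does not vouch for the calls made here. Alternatives changed scaling, floor, filter, blocks, prior, weights and samples. Deviations from group means correlated at 0.0569 to 0.154 between samples with the same number in WT and psbs, over 0.1 in 5 of 6 cases. The rule for pairing asked for all to exceed 0.1, so the numbers were not taken as pairs in the reported fit. The number of samples limits precision.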

Additional observations from a re-analysis of the deposited data

Results flagged for a closer look

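Samples far from the rest of their group were sought for the 6 genes on 3 scales, in 33 groups with any spread. By chance the cut-off picks about 5% of groups if values are independent and normal. That share does not apply to S6 and S10 in psbs, each with 4 of 6 samples at 0. The 3 scales of a gene are not independent either. S6 (AT1G64510) in psbs replicate 4 was at a deposited intensity of 0.0185, with the other psbs samples between 0 and 8.90e-05. S10 (AT3G13120) in psbs replicate 5 was at 0.0354, with the others between 0 and 0.0123. Both samples stood apart in deposited intensity and not in scaled log2 value or rank.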

How the results depend on the processing

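L17 kept its direction and its call under all 26 alternatives of the limma fit, as did L29 under all but median centring (0.61). L5 was reversed as deposited (-0.042) and not called at the same summed intensity (0.27), a scaling added after the data were seen. S10 was called lower as deposited (-3.69) and at the same summed intensity (-3.38). It turned higher with the floor at the 10th percentile (0.090) and with 0 values missing (0.67, called), which leaves its 2 psbs samples above 0. L34 turned lower as deposited (-1.87) and at the same summed intensity (-1.61). It was called higher with 0 values missing (1.27), consecutive numbers averaged (0.82), sample weights (0.84) and without psbs replicates 1 and 2 (0.90). The call from averaging (limma adjusted p = 0.00723) was not made with the same pairs as a random block (limma adjusted p = 0.247). S6 was reversed after cyclic loess (-0.14), not called. Quantile scaling with 0 kept at 0 raised the dimmest psbs values. L34 in psbs replicate 6 went from 0.00276 to 0.0918, while in WT replicate 6 it went from 0.1375 to 0.0759. S6 in psbs replicate 3 went from 8.90e-05 to 0.0815. The part of this in the changes above was not tested, apart from the 0 values that the setting itself removes.

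Leaving out each sample in turn gave log2 differences of 0.62 to 1.03 for L34, 2.02 to 2.24 for L17, 1.61 to 1.79 for L5, -1.53 to -1.32 for L29, -0.57 to -0.15 for S10 and 0.12 to 0.40 for S6. The mean rank difference of S10 ran from -22.9 to -13.0. The count of called features, 1859, was 1734 to 1925 without 1 sample and 1077 of the 1407 features above 0 in all samples, where fewer features were tested. The replicate number as a block gave 1833 calls and changed no call of the 6 genes, with a limma adjusted p of 2.13e-05 for L17. Consecutive numbers deviated together in WT, with correlations of 0.274 to 0.459; with them averaged the limma adjusted p was 0.000515 for L17, 0.00135 for L5 and 0.000925 for L29, while 3 against 3 samples cannot go below an exact permutation p of 0.1. Calls went 9.18% higher as deposited, 10.6% at the same summed intensity, 47.4% after quantile scaling and 57.2% after median centring.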
